A study of Mus musculus with 15 samples.

Results

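The TRAJ43 family described here is every T cell receptor (TCR) alpha-chain CDR3 peptide that ends in NNAPR, the end that the joining segment TRAJ43 gives to the loop. Of 92219 distinct CDR3 peptides listed in 15 mouse libraries, 4012 (4.35%) had this end. Of these members, 144 were listed in at least 1 of 5 Tumour libraries, 888 in at least 1 of 5 MP libraries and 3531 in at least 1 of 5 Naive libraries. The match was made on the peptide alone. The germline sequence of the segment was not used here, and the CDR3 is written without the conserved residues at its ends.

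The CDR3 is the most variable loop of the receptor and lies over the peptide that the T cell recognises. In the alpha chain it forms where a V segment is joined to a J segment: the first residues come from the V segment, the last from the J segment, and bases are trimmed and added between them. Trimming of the J segment shortens the run of asparagines (N) that precedes APR, and added bases can also encode an asparagine, so the length of that run is a property of the joint and the segment together. In the RefSeq gene table of GRCm38.p6, Traj43 is at position 19 of 60 Traj segments counted from the 5′ end, between Traj44 and Traj42 on chromosome 14. Primary rearrangements in developing thymocytes tend to use J segments at the 5′ side, and later rearrangements move to segments further downstream.

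All mice were C57BL/6 males with a fixed beta-chain transgene (TCRbtg), which leaves the alpha chain as the part that varies between cells. Tumour libraries came from CD8b+ CD4neg T cells of prostate tumours of 5 TCRbtg TRAMP+/- mice aged 27 weeks; TRAMP mice carry a viral oncogene driven in prostate epithelium by a probasin promoter. MP (memory-phenotype) libraries came from CD8b+ CD4neg CD44hi CD122+ cells, and Naive libraries from CD8b+ CD4neg CD44lo CD122neg cells, of TCRbtg mice aged 9 weeks. Both of the last were taken from spleen and lymph nodes of the animal combined, and 5 mice are given for these 2 subsets. The Tumour sort had no CD44 or CD122 gate, and its tissue, age and genotype differ from those of the other groups, so that these differences cannot be told apart. The files hold CDR3 peptides with read counts and no other genes, so the sorted cell types were not checked against markers. Depth was 627205 to 943699 reads in Tumour, 574484 to 881988 in MP and 547665 to 702663 in the Naive libraries. A read share mixes the number of cells with their receptor RNA: fewer cells of a clone and less RNA per cell cannot be told apart, and the numbers of sorted cells are not given in the labels.

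The loops on which the results turn are set out here, since pairs of them differ by 1 residue and yet led different groups.
Leading loop of 3 of 5 tumours: AASASNNNAPR
Leading loop of Tumour 3: AVRQNNNNAPR
Leading loop of 3 of 5 MP libraries: AVSAFNNAPR
Leading loop of the other MP libraries: ALVNNNAPR
The same loop with 1 more asparagine, among the leaders of Naive libraries: ALVNNNNAPR
Leading loop of every Naive library: AALNNNNAPR
Among the leaders of MP libraries: AIDGNNNAPR
Its neighbour among the leaders of Naive libraries: AIEGNNNAPR

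The family made up less of the tumour and MP repertoires than of the Naive one. It took 0.748, 0.924, 1.83, 0.601 and 0.199% of reads in Tumour libraries 1 to 5, 2.35, 2.35, 2.95, 2.28 and 2.47% in MP libraries, and 7.41, 6.93, 7.50, 7.62 and 7.95% in Naive libraries. The means were 0.861 ± 0.605% in Tumour, 2.48 ± 0.274% in MP and 7.48 ± 0.372% in Naive libraries (SD, n = 5 each), and no library of one group reached the range of another. The family was chosen by this read share, which was known to differ between MP and Naive, so these values are a description and no test was made on them. By distinct peptides the family made up 1.76, 1.99, 4.71, 1.52 and 1.64% of Tumour lists, 3.10 to 3.57% of MP lists and 5.00 to 5.30% of Naive lists. Tumour 3 lay above the MP libraries on this measure, so Tumour and MP overlapped, while the Naive lists lay above both. The Wilson 95% interval of a read share, which covers counting error only, ran for example from 0.191 to 0.209% in Tumour 5 and from 7.35 to 7.47% in Naive 1, so that counting error was small beside the spread between libraries.

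**Figure D1:**
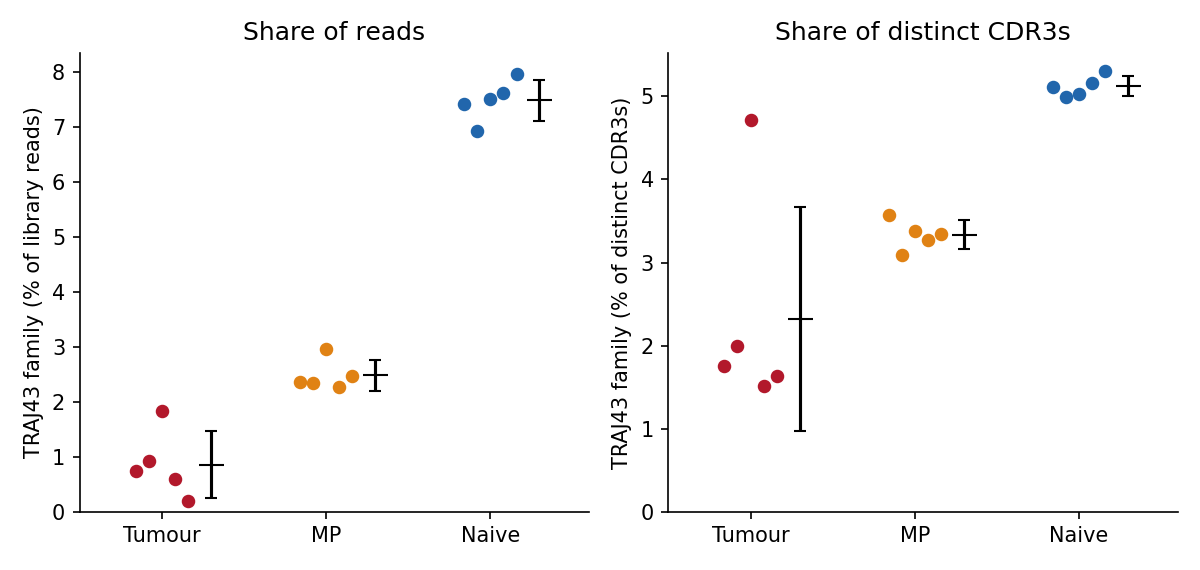
Share of each library held by loops ending NNAPR, as a percentage of reads on the left and of distinct CDR3s on the right; each point is a library and each bar is the group mean ± SD (n = 5). By reads the groups do not overlap, from 0.199 to 1.83% in Tumour, 2.28 to 2.95% in MP and 6.93 to 7.95% in Naive; by distinct CDR3s, Tumour 3 at 4.71% stands above the MP libraries.

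A listed member had on average 118 to 261 reads in Tumour, 36.2 to 264 in MP and 31.6 to 50.9 in the Naive libraries, and any other listed CDR3 had 296 to 981 reads in Tumour, 49.5 to 303 in MP and 20.7 to 36.0 in the Naive libraries. In Naive libraries a member thus carried more reads than another CDR3 in each of the 5, and in Tumour and MP libraries fewer in each of the 5. MP 1 and MP 5 stood apart from the other MP libraries, with 443 and 467 members listed against 75 to 105 in MP 2, 3 and 4. At a common depth of 547665 reads MP 1 and MP 5 were still expected to list 436 and 464 members, against 74.5 to 104 in the others. Tumour libraries listed 16 to 53 members and Naive libraries 745 to 1512.

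The rule's edge was drawn at a run of 2 asparagines. Loops with exactly 2, just inside it, took 0.0703 ± 0.123% of reads in Tumour, 0.588 ± 0.128% in MP and 0.455 ± 0.0533% in Naive libraries, and MP and Naive overlapped. The 278 loops ending NAPR with a single asparagine, just outside, took 0.00955 ± 0.0209% in Tumour, 0.0569 ± 0.0320% in MP and 0.0674 ± 0.00707% in Naive libraries.

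Loops with the shortest asparagine run took more of the family's reads in MP than in Naive libraries. With 2 asparagines they took 0.376, 31.1, 2.59, 2.28 and 0.319% of family reads in Tumour libraries 1 to 5, so that Tumour 2 stood far above the other 4. They took 27.1, 21.7, 25.3, 18.3 and 25.3% of family reads in MP libraries 1 to 5, against 6.86, 5.27, 6.17, 6.14 and 5.90% in Naive libraries. Every MP library lay above every Naive library, Tumour 2 lay above all of both, and the other tumours lay below all of both. Without AVSAFNNAPR, a loop given below and left out after its values were seen, the share was 0.376, 31.1, 0.113, 2.28 and 0.319% in Tumour, 11.2, 5.85, 12.9, 5.12 and 9.31% in MP and 5.27 to 6.86% in the Naive libraries, so that MP and Naive overlapped and the MP excess rested largely on this loop. Counted by distinct loops the share was 11.4 to 34.0% in Tumour, 14.7 to 26.7% in MP and 15.03 to 17.1% in the Naive libraries, and the groups overlapped. Runs of 3 took 15.1 to 81.2% of family reads in Tumour, 28.2 to 53.5% in MP and 47.3 to 52.9% in the Naive libraries, and the groups overlapped. Runs of 4 took 12.1 to 63.4% in Tumour, 25.6 to 40.4% in MP and 40.0 to 45.0% in the Naive libraries. Runs of 5 or more were listed in 1 tumour, Tumour 3, at 19.0%, and took 2.62 to 6.12% in MP and 1.22 to 1.83% in the Naive libraries, which did not overlap.

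**Figure D2:**
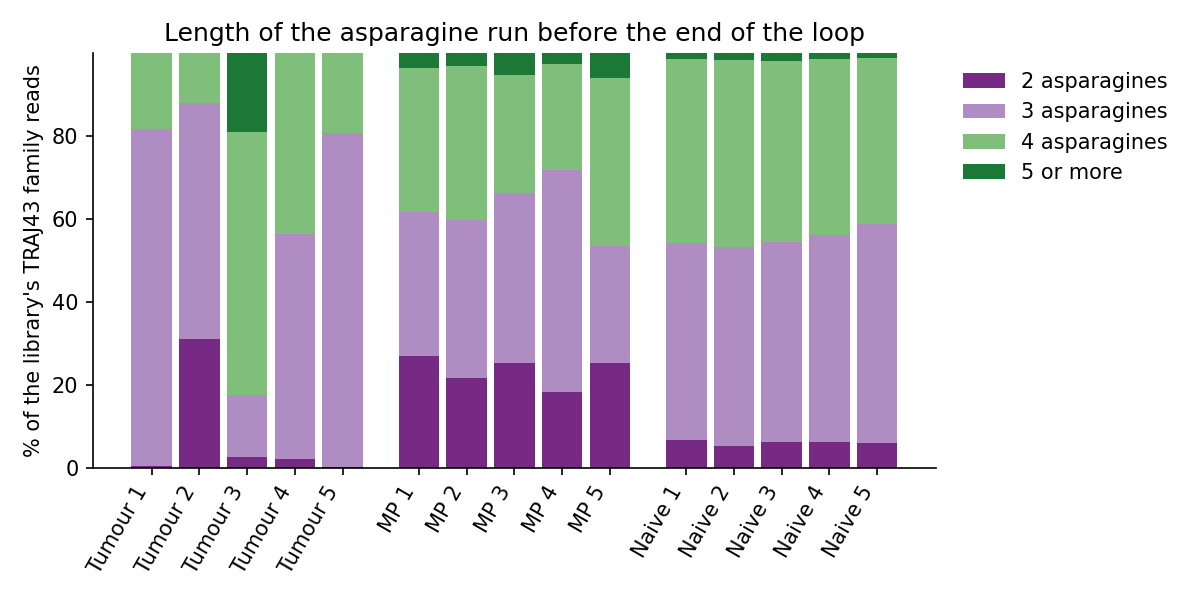
Share of each library's TRAJ43 family reads, in percent, by the number of asparagines directly before the end of the loop; each bar is a library. The darkest purple segment, 2 asparagines, takes 31.1% in Tumour 2 and 0.319 to 2.59% in the other tumours, 18.3 to 27.1% in the MP bars and 5.27 to 6.86% in the Naive bars.

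The residue before the asparagine run, the last one that lies outside it, also differed. Among the reads of loops with 2 asparagines, phenylalanine held this place in 66.8, 73.9, 49.1, 72.5 and 67.0% in MP libraries, against 0.896, 0.450, 1.88, 1.16 and 1.77% in Naive libraries. Over the whole family, phenylalanine held it in 13.4 to 19.6% of MP reads and 1.87 to 2.30% of Naive reads. AVSAFNNAPR alone, given below, held 12.4 to 16.03% of family reads in MP libraries, so that most of this phenylalanine came from 1 loop. Glycine held the place in 2.51 to 19.9% of family reads in MP and 21.4 to 23.5% in the Naive libraries, and serine in 4.05 to 9.51% and 12.6 to 14.7%. In tumours serine was found there in 8.92 to 58.2% and arginine in 3.24 to 41.4%, against 1.097 to 9.26% for arginine in MP and 2.27 to 2.91% in the Naive libraries. In these 3 shares the tumours ranged more widely than the libraries of either other group.

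The first residues of the loop come from the V segment, but no V segment was called here, so the shares below are of the first 2 residues alone. Loops starting AA took 25.6 to 72.7% of family reads in Tumour, 4.28 to 11.8% in MP and 31.5 to 37.6% in the Naive libraries. The MP libraries lay below all others. Loops starting AV took 0 to 68.5% in Tumour, 17.3 to 27.8% in MP and 12.3 to 16.2% in the Naive libraries, and MP and Naive did not overlap. Loops starting AI took at most 0.918% in any tumour, 9.33 to 33.0% in MP and 19.1 to 20.9% in the Naive libraries.

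By reads, family loops were longer in tumours and shorter in MP than in Naive libraries. The mean length was 10.53, 10.65, 12.02, 12.20 and 12.35 residues in Tumour libraries 1 to 5, 9.61 to 9.88 in MP and 10.13 to 10.15 in the Naive libraries. The 3 groups did not overlap by this measure. By distinct loop the mean was 10.3 to 13.4 residues in Tumour, 9.75 to 10.4 in MP and 10.6 to 10.7 in the Naive libraries, and Tumour overlapped both others. All other CDR3s had a mean of 11.3 to 11.6 residues in Tumour, 10.85 to 10.98 in MP and 11.28 to 11.37 in the Naive libraries. The MP mean was 0.383 residues below the Naive mean in the family and 0.402 below it in all other CDR3s, so the size of this difference was like that of the rest of the repertoire. The Tumour mean was 1.41 residues above the Naive mean in the family and 0.122 above it in all other CDR3s, where the groups overlapped. Loops of 9 residues took 37.2 ± 6.67% of family reads in MP and 14.5 ± 0.990% in Naive libraries (SD, n = 5 each). Loops of 13 or more residues took 0.483, 0.834, 41.1, 38.5 and 41.8% in Tumour libraries 1 to 5, and at most 0.979% in any MP and 0.685% in any Naive library. Tumours 3, 4 and 5 therefore carried the long loops, and Tumours 1 and 2 held few.

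**Figure D3:**
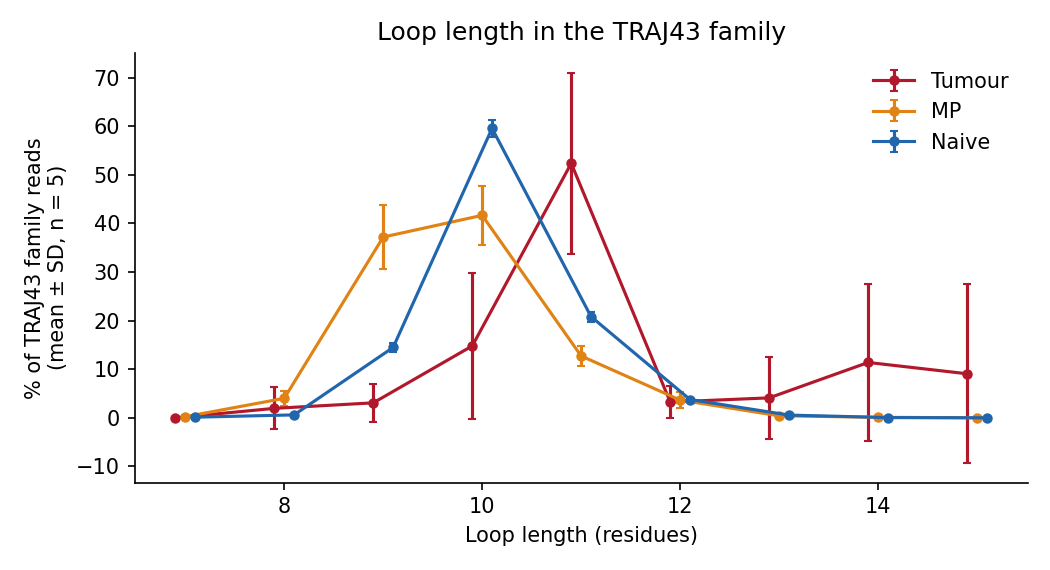
Share of TRAJ43 family reads, in percent, by loop length from 7 to 15 residues, as mean ± SD over the 5 libraries of each group. Tumour peaks at 11 residues with 52.4% and has wide bars at 14 and 15 residues, MP spreads over 9 residues with 37.2% and 10 residues with 41.7%, and Naive peaks at 10 residues with 59.6%.

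Single loops were compared between MP and Naive with edgeR's quasi-likelihood test over the whole table, kept to CDR3s that reached 10 reads in 3 or more libraries, and p-values were adjusted over all of these. Nothing says how mice match library numbers, so p-values measure the spread between these libraries. Of the 4012 members 353 passed the filter. In either direction 222 of them were called (62.9%), where 60.7% of all 5954 CDR3s tested were called. Of these 12 were called higher in MP (3.40%), where 12.6% of all were called higher, and 210 were called lower (59.5%), where 48.1% of all were. The share of members called lower is the family difference seen loop by loop and is no separate result. The median log2 fold change was -6.06 over the members and -3.35 over all CDR3s tested. Of the 210 lower members, 160 were not listed in any MP library and passed the filter through Naive libraries alone. Of the 12 higher members, 2 were listed in no Naive library and passed through MP libraries alone. AQNNNAPR and ALHNNAPR, with 3 and 6 Naive reads in all, reached 10 reads in MP libraries alone and passed the same way. Lower members with under 10 reads in each MP library likewise passed through Naive libraries alone, and were not counted here. The direction of these loops was thus set by the filter, and their fitted values are no measured folds. With unlisted groups set to 3 reads per library, the median log2 ratio was -2.56 over members and -2.19 over all.

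**Figure D4:**
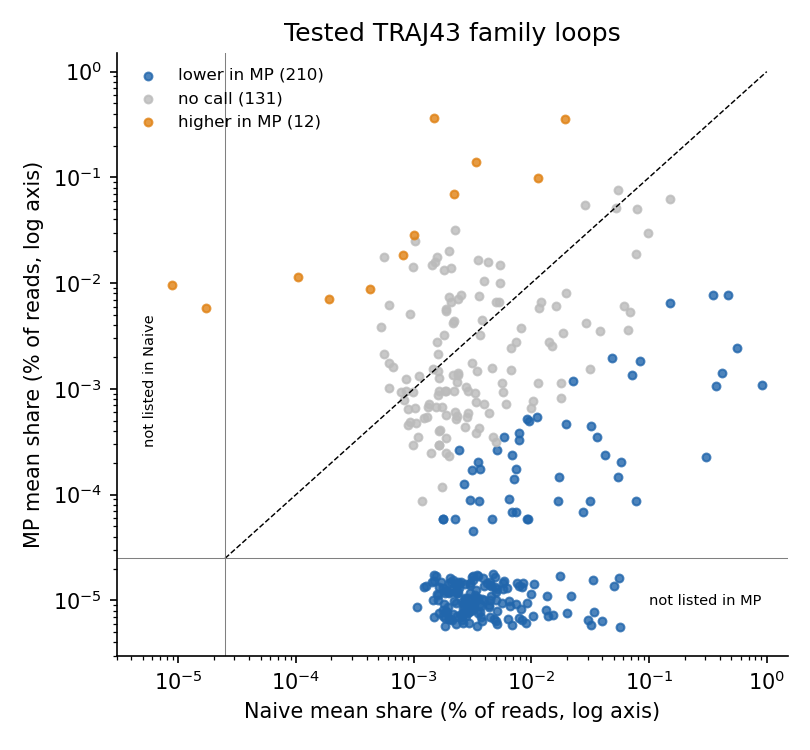
Mean share of library reads (percent, log axes) in MP and in Naive for the 353 tested loops ending NNAPR; each point is a loop, the dashed line is equality, and loops not listed in a group are drawn in the strip beyond the grey line at arbitrary depth. The 12 loops called higher in MP lie at the top left, 160 of the 210 called lower in MP lie in the bottom strip, and 2 of the 12 lie in the left strip.

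The 12 loops called higher in MP held 44.7 ± 6.20% of family reads in MP and 0.535 ± 0.291% in Naive libraries (SD, n = 5 each). They had a mean of 9.08 residues, against 10.5 for the 210 called lower and 10.2 over all 353 members tested. The lengths of all CDR3s called higher in MP were not set beside these. Of the 12, 8 had at most 9 residues, against 29 of the 210 and 71 of the 353. The largest was AVSAFNNAPR, with 0.374, 0.372, 0.367, 0.2998 and 0.396% of reads in MP libraries 1 to 5, against 0.00139, 0.00199 and 0.00409% in Naive 3, 4 and 5 and no listing in Naive 1 and 2. It was thus near even over the MP libraries and 242-fold above the Naive mean (log2 fold change 7.90 ± 1.46 SE, adjusted p = 0.00125); without Naive 5 the ratio was 428. It was listed in 1 tumour, Tumour 3, at 0.0453%. Its neighbour AVSAYNNAPR, with tyrosine for phenylalanine, had 0.0544 ± 0.0767% in MP, listed in 3 libraries, and 0.0284 ± 0.0164% in Naive libraries, listed in all 5, and made no call (adjusted p = 0.653). Whether the fold of these neighbours differs was not tested.

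ALVNNNAPR was next, with 0.240, 0.131, 0.675, 0.595 and 0.157% of reads in MP libraries, against 0.00697, 0.0122, 0.00801, 0.0119 and 0.0577% in Naive libraries. The MP libraries varied more than for AVSAFNNAPR but all lay above every Naive library, and the mean was 18.6-fold higher (log2 fold change 4.21 ± 0.876 SE, adjusted p = 0.00236). Without Naive 5, the highest Naive library, it was 36.7-fold higher. With 1 more asparagine the picture turned round: ALVNNNNAPR had 0.00363, 0.0244 and 0.0107% of reads in MP 1, 4 and 5 and no listing in MP 2 and 3, against 0.477, 0.538, 0.474, 0.426 and 0.426% in Naive libraries. It was 60.5-fold lower in MP (log2 fold change -5.92 ± 1.66 SE, adjusted p = 0.0117), and 131-fold lower without MP 4. Neither loop was listed in any tumour.

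The other leaders of MP began AI. AINNNNAPR had 0.139 ± 0.101% of reads in MP and 0.00336 ± 0.00222% in Naive libraries (adjusted p = 0.00416), and AINNNNNAPR, with 1 more asparagine, had 0.0989 ± 0.0423% in MP and 0.0115 ± 0.00558% in Naive libraries (adjusted p = 0.00122). Both were listed in all 5 MP libraries and the MP values lay above all Naive values, so that here an added asparagine left the direction as it was. AIDGNNNAPR was listed in 4 MP libraries at 0.0306 to 0.226% and in all Naive libraries at 0.00157 to 0.00299%, 31.3-fold higher on average in MP (adjusted p = 0.0151) and 13.5-fold without MP 2, the highest library. AIEGNNNAPR, with glutamate for aspartate, had 0.00113% in MP 1 and no listing in the other MP libraries, against 0.285 to 0.322% in Naive libraries (fitted log2 fold change -10.21 ± 1.67 SE, adjusted p = 0.000781). The MP mean of AIEGNNNAPR, 0.000227%, lay below 3 reads per library, so that this fitted value is no measured fold. AIDDNNAPR (adjusted p = 0.0303) and AASEAHNNNAPR (adjusted p = 0.0284) were each listed in 4 MP and 4 Naive libraries, at means of 0.0285 and 0.0185% in MP against 0.000999 and 0.000816% in Naive libraries. The call was lost for AIDDNNAPR without MP 2 or without Naive 1, 3, 4 or 5 (adjusted p up to 0.0717) and for AASEAHNNNAPR without Naive 1, 4 or 5 (adjusted p up to 0.0685). With a block for the library number in the same test, AINNNNNAPR (adjusted p = 0.113), AIDGNNNAPR (0.128), AIDDNNAPR (0.165) and AASEAHNNNAPR (0.0749) lost their calls.

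Of the 12, 5 had 8 residues, so that little lay between the first residues and the asparagines. AQNNNAPR had 0.00440 to 0.0166% in all 5 MP libraries and 3 reads in Naive 3 alone (adjusted p = 0.00270). ASNNNAPR had 0.00403 to 0.0158% in all 5 MP libraries and was listed in 2 Naive libraries (adjusted p = 0.0201). ACNNNAPR, listed in 4 MP libraries at a mean of 0.00958%, was listed in no Naive library and was at least 19.1-fold higher in MP (adjusted p = 0.0134). ALGNNAPR, also in 4 MP libraries and no Naive one, was at least 11.5-fold higher (adjusted p = 0.0113), and ALHNNAPR, in 4 MP and 3 Naive libraries, had means of 0.00710% in MP and 0.000189% in Naive libraries, the last below 3 reads per library, and no fold is given (adjusted p = 0.0251). The bounds take 3 reads per library as the floor of an unlisted loop. As AQNNNAPR, ACNNNAPR, ALGNNAPR and ALHNNAPR passed the filter through MP libraries alone, their direction was set by it. Their adjusted p-values are thus no separate support for that direction.

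Loops that share the residues before the asparagine run were set side by side after their values had been seen, and no test was made of the pattern. There were 52 such stems with tested members of different run length, 112 loops in all. In 4 stems, AIDD, ALH, ALV and AS, a member was called higher and another lower in MP. In all 4 the member with fewer asparagines was the one higher in MP. As given above, the call of AIDDNNAPR was lost in several settings, and the Naive mean of ALHNNAPR lay below 3 reads per library. In AIDD, the loop with 2 asparagines was higher, and those with 3 (0.00184 ± 0.00293% in MP against 0.0842 ± 0.0128% in Naive) and 4 were lower. In AS, the loop with 3 was higher, ASNNNNAPR with 4 was near equal at 0.0510 ± 0.0242% in MP and 0.0524 ± 0.00672% in Naive libraries, and the loop with 5 was not listed in MP. In 10 stems all members were called lower, and in 1 stem, AI, all were called higher. The other 37 had at least 1 member with no call, and they ran both ways. In some of them, such as AASAT, AID, AIDH, AIED, ALAF and AV, the loop with fewer asparagines was called lower and the other made no call. In most of the 37 the loop with fewer asparagines had the higher fold change. Examples are AC, AF, AIDG, ALT and AVSAF, where only 1 of each pair was called. The order in the 4 stems was thus not general.

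The leaders of Naive libraries were listed in all 5 of them. AASSNNNAPR had at most 0.00746% of reads in an MP library, against 0.474, 0.441, 0.548, 0.640 and 0.677% in Naive libraries 1 to 5. AASGNNNAPR was listed in MP 1 and MP 5 alone among MP libraries, at 0.00624 and 0.000877%, against 0.289 to 0.506% in Naive libraries. AVSEGNNNAPR was likewise listed in MP 1 and MP 5 alone, against 0.2998 to 0.448% in Naive libraries. AIDNNNAPR was listed in 3 MP libraries at up to 0.0280%, against 0.326 to 0.369% in Naive libraries. Of the 10 leading Naive loops, picked for being high there, 8 were called lower in MP, where 48.1% of all CDR3s tested were; AVSDGNNNAPR lost its call without Naive 5 (adjusted p = 0.0513), and it and AIDNNNAPR lost theirs without MP 1 and MP 5 together (0.0731 and 0.0520). The other 2, AIDNNNNAPR (0.0625 ± 0.0388% in MP and 0.152 ± 0.0246% in Naive; adjusted p = 0.361) and ALSNNNNAPR (0.0296 ± 0.0371% in MP and 0.0989 ± 0.0121% in Naive; adjusted p = 0.363), made no call. Loops at like levels in both subsets existed too: ALNNNNAPR had 0.0755 ± 0.0322% in MP and 0.0544 ± 0.00881% in Naive libraries and was, with APNNNNAPR, the member listed in most libraries, 11 of 15. The mean of APNNNNAPR in MP, 0.0507%, rested on MP 2 at 0.233%, as the other MP libraries had at most 0.00905%.

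In tumours the family was made up of few loops. Of 144 members 133 (92.4%) were listed in 1 tumour, 5 in 2, 5 in 3, 1 in 4 and none in all 5; of all 6146 CDR3s listed in tumours 85.9% were listed in 1. The largest loop took 49.1, 41.7, 34.8, 50.9 and 32.5% of family reads in Tumour libraries 1 to 5, against 15.9 to 26.1% in MP and 10.6 to 13.2% in the Naive libraries. The 3 largest together took 62.2 to 84.4% in Tumour, 31.1 to 43.6% in MP and 25.3 to 27.3% in the Naive libraries. In MP, 10 members were listed in all 5 libraries and held 46.3 ± 5.11% of family reads; in Naive, 265 were, and held 85.2 ± 0.963%. Over all CDR3s, those listed in all 5 libraries of a group held 35.3 ± 9.24% of reads in Tumour, 65.8 ± 1.39% in MP and 78.7 ± 0.548% in Naive libraries.

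**Figure D5:**
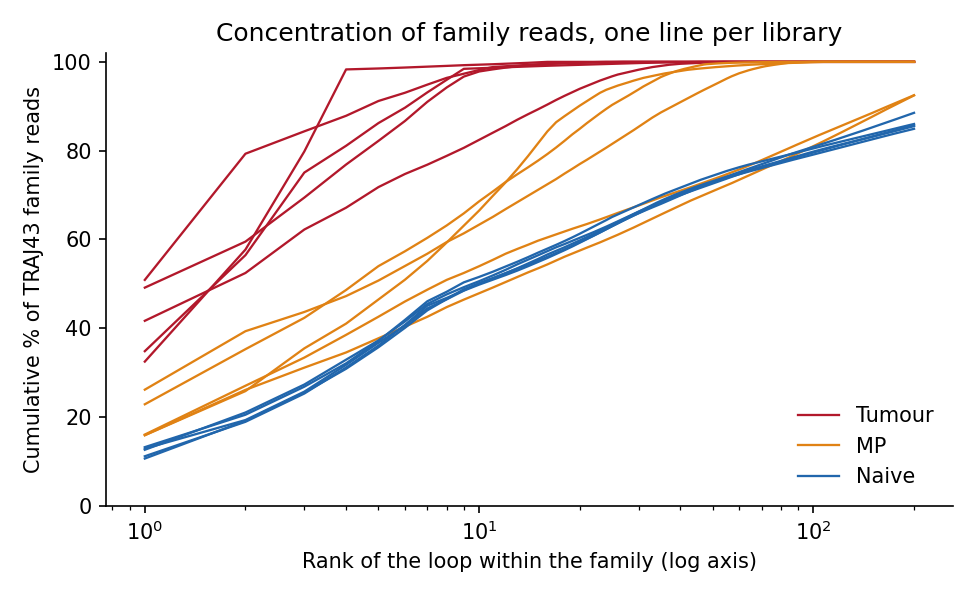
Cumulative share of TRAJ43 family reads, in percent, against the rank of the loop within its library (log axis); each line is a library. The Tumour lines start at 32.5 to 50.9% and flatten early, the MP lines start at 15.9 to 26.1%, with MP 1 and MP 5 running near the Naive lines, and the Naive lines start at 10.6 to 13.2% and lie close together.

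AASASNNNAPR was the loop found in 4 tumours. It had 2744, 2996, 397 and 2500 reads in Tumours 1 to 4, which is 0.368, 0.385, 0.0633 and 0.306% of reads, and was not listed in Tumour 5. Outside tumours it had 47 reads in MP 5 and 2 reads in each of Naive 4 and Naive 5. It was the 1 member called higher in Tumour than in MP (log2 fold change 7.33 ± 2.90 SE, adjusted p = 0.0358), among 45 members tested. That share, 2.22%, stands beside 7.68% of all 1666 CDR3s tested, and calls in either direction made up 73.3% of members and 73.7% of all. This call was lost when any one of MP 1, 2, 3 or 4 was left out, with adjusted p up to 0.0759 and log2 fold changes of 7.01 to 7.02. The size of the fold rested on the 47 reads of MP 5: without that library no MP library listed the loop, and the fitted log2 value was 13.71, which is no measured fold (adjusted p = 0.0185). Against Naive it was one of 2 members called higher (log2 fold change 10.52 ± 2.34 SE, adjusted p = 0.00192) among 307 tested. That share, 0.651%, stands beside 3.38% of all 4671 CDR3s tested, and calls in either direction made up 95.4% of members and 90.1% of all. The 2 members called higher than in Naive passed the filter through Tumour libraries alone, so their direction was set by the filter. Their Naive means lay below 3 reads per library, and their fitted values against Naive are no measured folds.

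The other was AASESNNNAPR, which differs from it by glutamate in place of an alanine. It had 334, 588 and 475 reads in Tumours 2, 3 and 5, against 8, 50 and 2 reads in MP 1, 4 and 5 and 4 and 2 reads in Naive 3 and 5. It was called higher in Tumour than in Naive (fitted log2 fold change 7.41 ± 2.37 SE, adjusted p = 0.0133) and made no call against MP (adjusted p = 0.151). Each of the 5 tumours thus listed AASASNNNAPR, AASESNNNAPR or both. AASESNNNAPR no longer met the filter when Tumour 2, 3 or 5 was left out, so that its call rests on those 3.

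Of the 45 members tested against MP 32 were called lower in Tumour (71.1%, beside 66.0% of all CDR3s tested), and 31 of these were not listed in any tumour. Of the 307 tested against Naive 291 were called lower (94.8%, beside 86.7% of all), and 282 were not listed in any tumour. The loops not listed in any tumour passed the filter through the MP or Naive libraries alone. Their direction was thus set by the filter, and these shares are no separate result. Both comparisons use the same Tumour libraries. The median log2 ratio with unlisted groups at 3 reads per library was -4.09 over members and -3.76 over all CDR3s for Tumour against MP, and -3.18 and -3.16 for Tumour against Naive. Without MP 1, 17 of 27 members tested against MP were called lower, and without MP 5, 16 of 26. Without both, the libraries with the longest lists, 11 members were tested against MP and 7 were called lower, with 1 still called higher.

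Some loops that led single tumours carried an arginine in the stem, the residues ahead of the asparagine run. AVRQNNNNAPR had 3999 reads, 0.638%, in Tumour 3 and was listed in no other library. AVRAPSRNNNNAPR had 2486 reads in Tumour 3 and 248 in Tumour 4, and AVRSPSRNNNNAPR, which differs from it by 1 residue, had 0.171% of reads in Tumour 4 and 0.000877% in MP 5. Neither was listed in a Naive library. AASEFNNNNNAPR, with 5 asparagines, had 0.341% in Tumour 3 alone. Tumour 2 was led after AASASNNNAPR by AVSEYNNAPR at 0.0995% and AVSRFNNAPR at 0.0904%, loops with 2 asparagines that MP 1 and MP 5 also listed. In Naive libraries AVSEYNNAPR was listed in all 5 and AVSRFNNAPR in Naive 2 alone.

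Of the 144 members in tumours, 37 (25.7%) were also listed in MP and 50 (34.7%) in Naive libraries, and 90 (62.5%) in neither. Over all 6146 CDR3s listed in tumours the shares were 25.7, 35.0 and 59.1%. Of the 888 members in MP 497 (56.0%) were also listed in Naive libraries, against 42.5% of all CDR3s listed in MP. These members held 90.04 ± 3.37% of MP family reads, and all CDR3s of MP also listed in Naive held 85.9 ± 1.13% of MP reads. Likeness was measured by the Morisita-Horn index, which runs from 0 (no loop in common) to 1 (identical shares). It averaged 0.279 over the 10 pairs of tumours (0 to 0.854), 0.696 over pairs of MP libraries (0.471 to 0.918) and 0.982 over pairs of Naive libraries (0.970 to 0.992) within the family. The same index over all other CDR3s was 0.220, 0.916 and 0.972, so the MP libraries were less alike in the family than in the rest of their repertoires, by a description over pairs that share libraries. Between MP and Naive libraries it was 0.0528 in the family and 0.0601 in the rest.

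The list was also counted after folding rare neighbours into abundant loops. Folding each loop into a CDR3 of the same library at 1 substitution and at least 100 times its reads left 15, 41, 9, 13 and 6 members in Tumour libraries 1 to 5, 55 to 445 in MP and 651 to 1333 in the Naive libraries. The read share of the family was then 0.861 ± 0.605% in Tumour, 2.48 ± 0.275% in MP and 7.49 ± 0.372% in Naive libraries. Before this step Tumour libraries 1 to 5 listed 26, 53, 44, 23 and 16 members. The counts of members by number of libraries, the members shared between groups and the shares of distinct CDR3s, with 4.71% in Tumour 3, were all taken before folding.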

How the data were processed

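TCR alpha CDR3s were measured in 15 libraries, with 5 of each group. Per the labels' protocols, RNA of sorted cells was taken with Trizol and libraries were made by iRepertoire with a multiplex RT-PCR. How reads were aligned, how CDR3s were called and whether errors were filtered is not given in the sources used here. Each library has 1 list of peptides with their read counts, which the authors deposited unnormalized, and the lowest listed count was 2. No molecular identifiers are stated, so that PCR copies of a molecule may count repeatedly and intervals and floors cover counting error only. An unlisted loop was given a floor of 3 reads per library for folds.

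Members were the peptides ending NNAPR. They, the lists and the measures were chosen with earlier results of these data known. Calls came from edgeR 4.0.16 in R 4.3.3 (limma 3.58.1): a robust quasi-likelihood test on all CDR3s, each pair of groups fitted alone, total reads as library size, at least 10 reads in at least 3 libraries, Benjamini-Hochberg adjusted p under 0.05. The test was also run on simulated counts with the same spread for every CDR3, and the outcome is not given here. Its SE is the log2 fold change over the square root of its F. Family values were computed per library with pandas 2.3.3, numpy 2.4.6 and scipy 1.17.1 (python 3.11.15; plots by matplotlib 3.10.9), and no p was taken for them. Loops named were the 10 with the highest mean share in each group, those called higher in a comparison (the 10 with the highest share where more were called) and the 3 listed in most libraries; ALGNNAPR, ALHNNAPR and loops of shared stems were named after values were seen. Alternatives were TMM, DESeq2 1.42.0, a filter of 50 reads, a filter of 1 read in 2 libraries (called no filter), a minimum log2 fold of 1, a block for the library number, each library left out in turn, MP 1 and MP 5 left out together, weighting by distinct loop, leaving out CDR3s under 10 reads, folding of neighbours and the end NNNAPR. The share of loops with 2 asparagines without AVSAFNNAPR, and mean ratios of named loops without 1 library, were added after seeing the data.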

Additional observations from a re-analysis of the deposited data

Results flagged for a closer look

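In 58 groups of 5 libraries, 1 library's distance from the nearest other was compared with the range of its group, and 5 groups had a library beyond Dixon's 95% limit. Chance flags about 1 in 20 groups. Single loops were examined only in groups that list them in all 5 libraries.

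Tumour 3 had 4.71% of its distinct CDR3s in the family, against 1.52 to 1.99% in the other tumours. Tumour 2 had 31.1% of its family reads in loops with 2 asparagines, against 0.319 to 2.59% in the other tumours. APNNNNAPR took 0.233% of reads in MP 2, against 0.000299 to 0.00905% in the other MP libraries. ALVNNNAPR took 0.0577% of reads in Naive 5, against 0.00697 to 0.0122% in the other Naive libraries. AINNNNNAPR took 0.0214% in Naive 2, against 0.00784 to 0.0101% in the other Naive libraries.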

How the results depend on the processing

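Members called higher in MP than in Naive numbered 12, and 54 with no filter, 7 with a replicate block and 9 to 13 with a library left out; those called lower numbered 210, and 54 with at least 50 reads, 877 with no filter and 154 to 228 with a library left out. For Tumour against MP, 1 was higher, and 0 with edgeR and TMM (33 members in either direction at an unadjusted p under 0.05), 1 with DESeq2, 8 with no filter and 0 to 1 with a library left out; 32 were lower, and 14 with at least 50 reads, 179 with no filter, 10 with a replicate block, 7 without MP 1 and MP 5 together and 16 to 37 with a library left out, the lowest without MP 5 (16) and MP 1 (17). For Tumour against Naive, 2 were higher, and 3 with no filter, 1 without Tumour 5 and 1 to 2 over all single libraries left out; 291 were lower, and 70 with at least 50 reads, 1221 with no filter and 222 to 297 with a library left out. The stricter filter tests fewer loops and no filter tests more. Tumour libraries came from other mice than MP and Naive libraries, so in the Tumour comparisons the replicate block matches library numbers arbitrarily.

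The Tumour minus MP read share was -1.62 percentage points, -1.10 for loops ending NNNAPR and -1.01 by distinct loop; Tumour minus Naive was -6.62, and -2.80 by distinct loop; MP minus Naive was -5.00, -5.38 without CDR3s under 10 reads and -1.79 by distinct loop. Leaving out a library gave -1.86 to -1.45, -6.87 to -6.46 and -5.14 to -4.89. The MP minus Naive length was -0.383 residues (-0.415 to -0.345), and -0.513 by distinct loop; Tumour minus Naive length was 1.41 (1.21 to 1.66). The share of at least 4 asparagines was 7.19 points lower in MP than in Naive reads (-9.46 to -4.90), but 3.59 points higher by distinct loop, and 9.48 lower in Tumour than in Naive reads (-21.3 to -3.73), but 5.33 points higher by distinct loop; by distinct loop the ranges overlapped in both comparisons. The cause was not tested.

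AVSARNNNAPR, uncalled for Tumour against Naive, had a log2 fold change of -6.92 to 3.68 with a library left out, the lowest without Tumour 3, and -5.45 with the replicate block; AVSEYNNAPR, also uncalled, had -9.37 to 1.04, the lowest without Tumour 2, and -8.15 with the block. Over 73 loop and comparison pairs, 1063 alternative values stayed on the same side of the threshold. Of the rest, 32 lost the call, 17 gained one and 3 turned to a call in the other direction. The 1063 include uncalled values that changed direction, as for AVSAFNNAPR in Tumour against Naive (log2 fold change 2.58, lowest alternative -2.81). AASASNNNAPR against MP also lost its call with TMM (adjusted p = 0.0695). TMM moved the median log2 fold change of all CDR3s to -3.19 for MP against Naive, -9.06 for Tumour against MP and -8.47 for Tumour against Naive.

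Same-numbered MP and Naive libraries deviated together with correlations of 0.012 to 0.047, all positive. Libraries of different number gave -0.0507 to 0.0339. Correlations this small cannot settle whether same numbers share a mouse. The labels do not pair the libraries, so the main test was unpaired. Under the replicate block AINNNNNAPR (adjusted p = 0.113), AIDGNNNAPR (0.128), AIDDNNAPR (0.165) and AASEAHNNNAPR (0.0749) lost their calls between MP and Naive. A loop with few reads in an unlisted group cannot be told from an absent one at this depth.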
